A study of Mus musculus with 70 samples.

Results

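The glucocorticoid receptor gene and 8 genes that it is known to regulate, or that set its supply of hormone, were followed in 4 types of white blood cell from mice with and without chronic social stress. The 9 genes are Nr3c1, the receptor itself, and Fkbp5, Tsc22d3, Klf9, Sgk1, Ddit4, Zbtb16, Cebpd and Hsd11b1. They were chosen by name as 9 rows of a count table of 52636 genes, and all 9 were present. CON mice were not defeated. SUS (stress-susceptible) and RES (resilient) mice went through chronic social defeat stress (CSDS), 10 days of attacks of 10 min per day by an aggressive CD-1 mouse, and were told apart by their behaviour in a social interaction test. All were C57BL/6J mice 7 to 8 weeks of age at the start, no allele or drug is given for any group, and their sex is not stated for these libraries.

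The table held 70 libraries. Each was RNA of cells sorted from blood with antibodies to CD11b, Ly6C, Ly6G, B220 and CD90.2, although the source tissue on the labels reads Brain. Libraries 52, labelled RES B cells, and 70, labelled RES T cells, were left out because each carried the marker RNA of the other lymphocyte (values are given at the end), which left 68. There were then 6 libraries in each group of cell type and condition, except 4 of CON Ly6C-low monocytes, 5 of RES B cells and 5 of RES T cells. No label ties a library to a mouse, so pairing across cell types was not possible, and the p-values measure the spread between these libraries, which may be technical. Total counts ran from 19769835 to 67038231 per library. The summed CPM (counts per 1000000 counts) of 5 B cell markers was 4146 to 5336 in the B cell libraries and at most 34.2 in the rest. For 5 T cell markers it was 1625 to 2333 in T cells and at most 97.6 in the rest. The 5 Ly6C-high markers summed to 4391 to 9183 CPM in Ly6C-high and 169.8 to 563 CPM in Ly6C-low monocytes, and the 5 Ly6C-low markers to 760.4 to 1760 and 5412 to 7492 CPM.

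Glucocorticoids, corticosterone in the mouse, are released by the adrenal gland under stress and enter the cell by diffusion. The receptor waits in the cytoplasm in a complex with heat shock proteins, moves to the nucleus when it binds hormone, and raises or lowers transcription of its targets. In leukocytes it is best known for restraining inflammatory genes. FKBP5 is a co-chaperone that lowers the receptor's affinity for hormone and is itself induced by it, and HSD11B1 regenerates active hormone from its inactive keto form inside the cell. TSC22D3 (GILZ), KLF9, ZBTB16 (PLZF) and CEBPD act in transcription, SGK1 is a kinase, and DDIT4 (REDD1) inhibits mTORC1.

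The receptor binds DNA at a palindrome of 2 half-sites, searched here as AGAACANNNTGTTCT. RefSeq promoters (build GRCm38.p6, 250 bases before to 50 bases after the start) were in the table for 6 of the 9 genes, 13 promoters in all. The palindrome was found in 3 of all 32851 promoters (0.00913%), and 1 of those 3 belongs to Sgk1. The half-site AGAACA, read on either strand and therefore also inside each palindrome, was in 6233 promoters (19%) and in 4 of the 13: 3 of the 6 of Sgk1 and 1 of the 3 of Tsc22d3. The Sgk1 promoter is shown because it holds the full match, in capitals at positions 21993701 to 21993715, and the Fkbp5 promoter because Fkbp5 carries the main result on stress. These letters do not occur in that Fkbp5 window, which says nothing of sites elsewhere in the gene.
Sgk1, chr10:21993640-21993939, + strand: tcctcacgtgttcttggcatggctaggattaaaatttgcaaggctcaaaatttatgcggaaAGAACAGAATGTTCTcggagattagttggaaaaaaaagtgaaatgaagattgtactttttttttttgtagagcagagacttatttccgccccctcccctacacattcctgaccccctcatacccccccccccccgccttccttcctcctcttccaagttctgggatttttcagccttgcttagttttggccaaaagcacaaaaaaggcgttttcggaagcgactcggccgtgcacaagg
Fkbp5, chr17:28486100-28486399, - strand: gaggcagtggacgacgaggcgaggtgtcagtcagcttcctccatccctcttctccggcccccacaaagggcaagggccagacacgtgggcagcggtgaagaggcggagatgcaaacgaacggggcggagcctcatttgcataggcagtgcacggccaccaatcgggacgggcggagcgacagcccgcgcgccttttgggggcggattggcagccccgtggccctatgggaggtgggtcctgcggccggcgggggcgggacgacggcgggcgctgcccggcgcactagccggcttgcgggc

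In CON mice the 4 cell types carried different amounts of nearly every one of these mRNAs. Levels within a gene are given as CPM with trimmed-mean scaling, as mean ± SD (n = 6, or 4 for Ly6C-low monocytes). Pairs of cell types were tested in 1 fit over 12 groups with adjustment over 24248 genes. In bulk RNA, fewer expressing cells and less RNA per cell cannot be told apart. Per length (RPKM, reads per kilobase of exon, scaled to depth), Tsc22d3 was the most abundant of the 9 in all 4 cell types, at 61.8 to 143 RPKM. Nr3c1 followed at 13.2 to 27.2 RPKM, the next in 3 of the types. In Ly6C-low monocytes Ddit4, at 32.6 RPKM, came before it, and Sgk1 was level with it at 27.2 RPKM.

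**Figure D1:**
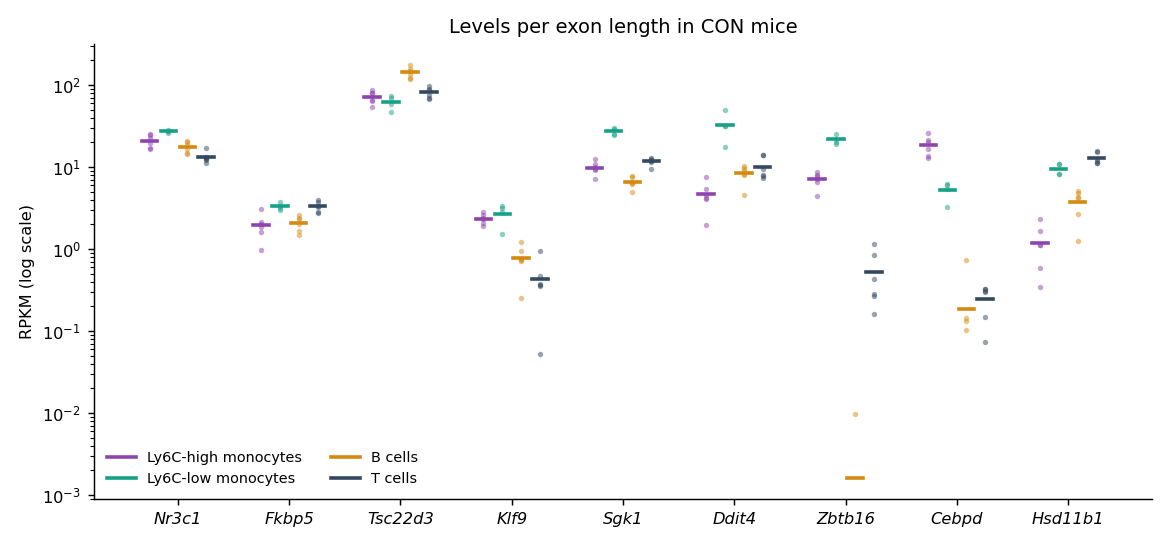
Levels of the 9 genes in CON mice as RPKM on a log axis. Points are libraries (those with 0 counts are not drawn), and bars are the mean of 4 libraries in Ly6C-low monocytes and 6 in the other types. Tsc22d3 stands highest in every type, and Zbtb16 and Cebpd are far lower in B and T cells than in monocytes.

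Receptor mRNA was highest in Ly6C-low monocytes. Nr3c1 (chr18:39410545-39519421, - strand) measured 209 ± 6.59 CPM there, with 199.7, 209, 211 and 215 CPM in the 4 libraries, 160.5 ± 28.6 CPM in Ly6C-high monocytes, 135 ± 20.5 CPM in B cells and 101 ± 15.1 CPM in T cells. Of the neighbours in this order, Ly6C-low and Ly6C-high (log2 difference of Ly6C-high minus Ly6C-low -0.38, SE 0.17, adjusted p = 0.108) and Ly6C-high and B cells (0.25, adjusted p = 0.172) did not pass the test. B and T cells did (0.41, SE 0.15, adjusted p = 0.03), but the call was lost on leaving out any of 7 of the 12 libraries (CON B cell libraries 35, 38, 41 and 44 and CON T cell libraries 56, 59 and 62), where adjusted p was 0.0509 to 0.079. The difference between the ends, Ly6C-low against T cells, was 1.04 (SE 0.16, adjusted p = 2.39e-07), with no overlap of libraries.

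The hormone-activating enzyme ran in another order. Hsd11b1 (chr1:193221634-193264075, - strand) was highest in T cells at 55.2 ± 8.33 CPM and Ly6C-low monocytes at 40.8 ± 6.83 CPM, a pair that did not pass the test (Ly6C-low minus T -0.44, SE 0.30, adjusted p = 0.28), although every T cell library was above every Ly6C-low library. B cells held 15.9 ± 6.28 CPM and Ly6C-high monocytes 5.03 ± 3.02 CPM. Ly6C-high monocytes were lower than T cells by a log2 difference of -3.45 (SE 0.30, adjusted p = 7.62e-16) and lower than Ly6C-low monocytes by -3.01 (SE 0.31, adjusted p = 7.54e-12), with no overlap in either pair. Hsd11b1 overlaps 3 other annotated genes, Lamb3 among them, and the strand setting of the read counting is not stated, so reads of the overlaps cannot be told apart. The co-chaperone Fkbp5 (chr17:28399094-28517527, - strand) split the types into 2 levels, with 31.5 ± 4.65 CPM in T cells and 31.4 ± 3.11 CPM in Ly6C-low monocytes against 19.7 ± 4.08 CPM in B cells and 18.4 ± 6.49 CPM in Ly6C-high monocytes. All 4 differences across these levels passed the test, with adjusted p from 0.000635 (Ly6C-high against T cells) to 0.00779 (Ly6C-low against B cells).

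Among the targets, Tsc22d3 (chrX:140539528-140600659, - strand) was the only gene of the 9 highest in B cells, at 622 ± 94.8 CPM against 352 ± 52.4 in T cells, 312 ± 54.1 in Ly6C-high and 268.5 ± 50.3 in Ly6C-low monocytes. Its B cell libraries lay above all others (B minus T 0.82, SE 0.19, adjusted p = 0.000378), and the other neighbours did not pass. Sgk1 (chr10:21882184-21999903, + strand) was highest in Ly6C-low monocytes at 133 ± 12.6 CPM, then 57.6 ± 5.79 CPM in T cells, 48.1 ± 8.84 CPM in Ly6C-high monocytes and 32.3 ± 5.13 CPM in B cells. The T and Ly6C-high pair was the one pair of its neighbours that missed the threshold (adjusted p = 0.158). Ddit4 (chr10:59949669-59951834, - strand), likewise, had 57.2 ± 22.5 CPM in Ly6C-low monocytes and 17.6 ± 5.33 CPM in T, 14.6 ± 3.6 CPM in B and 8.12 ± 3.21 CPM in Ly6C-high cells. Its Ly6C-high libraries were below all Ly6C-low libraries (-2.82, SE 0.42, adjusted p = 6.49e-07), while T against B cells and B cells against Ly6C-high monocytes did not pass.

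The 3 remaining transcription factors were monocyte genes. Cebpd (chr16:15887286-15891031, + strand), which overlaps Spidr on the other strand, had 69.3 ± 19 CPM in Ly6C-high monocytes, 19.5 ± 5.14 CPM in Ly6C-low monocytes, 0.92 ± 0.4 CPM in T cells and 0.7 ± 1.05 CPM in B cells. The difference between the monocyte types (1.83, SE 0.66, adjusted p = 0.0474) lost its call without any of 8 of the 10 libraries (1, 4, 7, 13, 21, 24, 29 and 32), although the libraries did not overlap. Zbtb16 (chr9:48654297-48836222, - strand) had 114.5 ± 13.6 CPM in Ly6C-low and 37.5 ± 7.86 CPM in Ly6C-high monocytes, again without overlap (-1.61, SE 0.68, adjusted p = 0.0965). In T cells it had 2.78 ± 2.09 CPM, and in B cells 5 of the 6 libraries had 0 counts and the sixth 2 counts. Klf9 (chr19:23141226-23168134, + strand) had 13 ± 3.92 CPM in Ly6C-low and 11.3 ± 1.68 CPM in Ly6C-high monocytes, 3.73 ± 1.54 CPM in B cells and 2.05 ± 1.4 CPM in T cells. Ly6C-high exceeded B cells by 1.60 (SE 0.38, adjusted p = 0.000313), while the monocyte pair and the lymphocyte pair did not pass.

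Counted over the 9 genes, 9 differed between Ly6C-low monocytes and B cells (38.9% of all genes), 7 between Ly6C-high monocytes and T cells (43.1%), 6 between Ly6C-high monocytes and B cells (43.8%), 6 between Ly6C-low monocytes and T cells (35.7%), 6 between B and T cells (28.9%) and 5 between the monocyte types (16.9%). The direction was not shared: against Ly6C-low monocytes, Ly6C-high cells had more Cebpd and less Fkbp5, Sgk1, Ddit4 and Hsd11b1.

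The central question of the design was what stress changed in each cell type. In Ly6C-high monocytes of SUS mice, Fkbp5 and Cebpd rose and Nr3c1 and Zbtb16 fell relative to CON mice. These 4 of the 9 genes passed the test (adjusted p under 0.05), where 12.6% of all 16955 genes tested did. Of the 2139 genes that passed, 1488 were higher and 651 lower, a split that became 1224 and 846 of 2070 with DESeq2 size factors. The median log2 fold change of the 9 was 0.34, and that of all genes was -0.05.

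**Figure D2:**
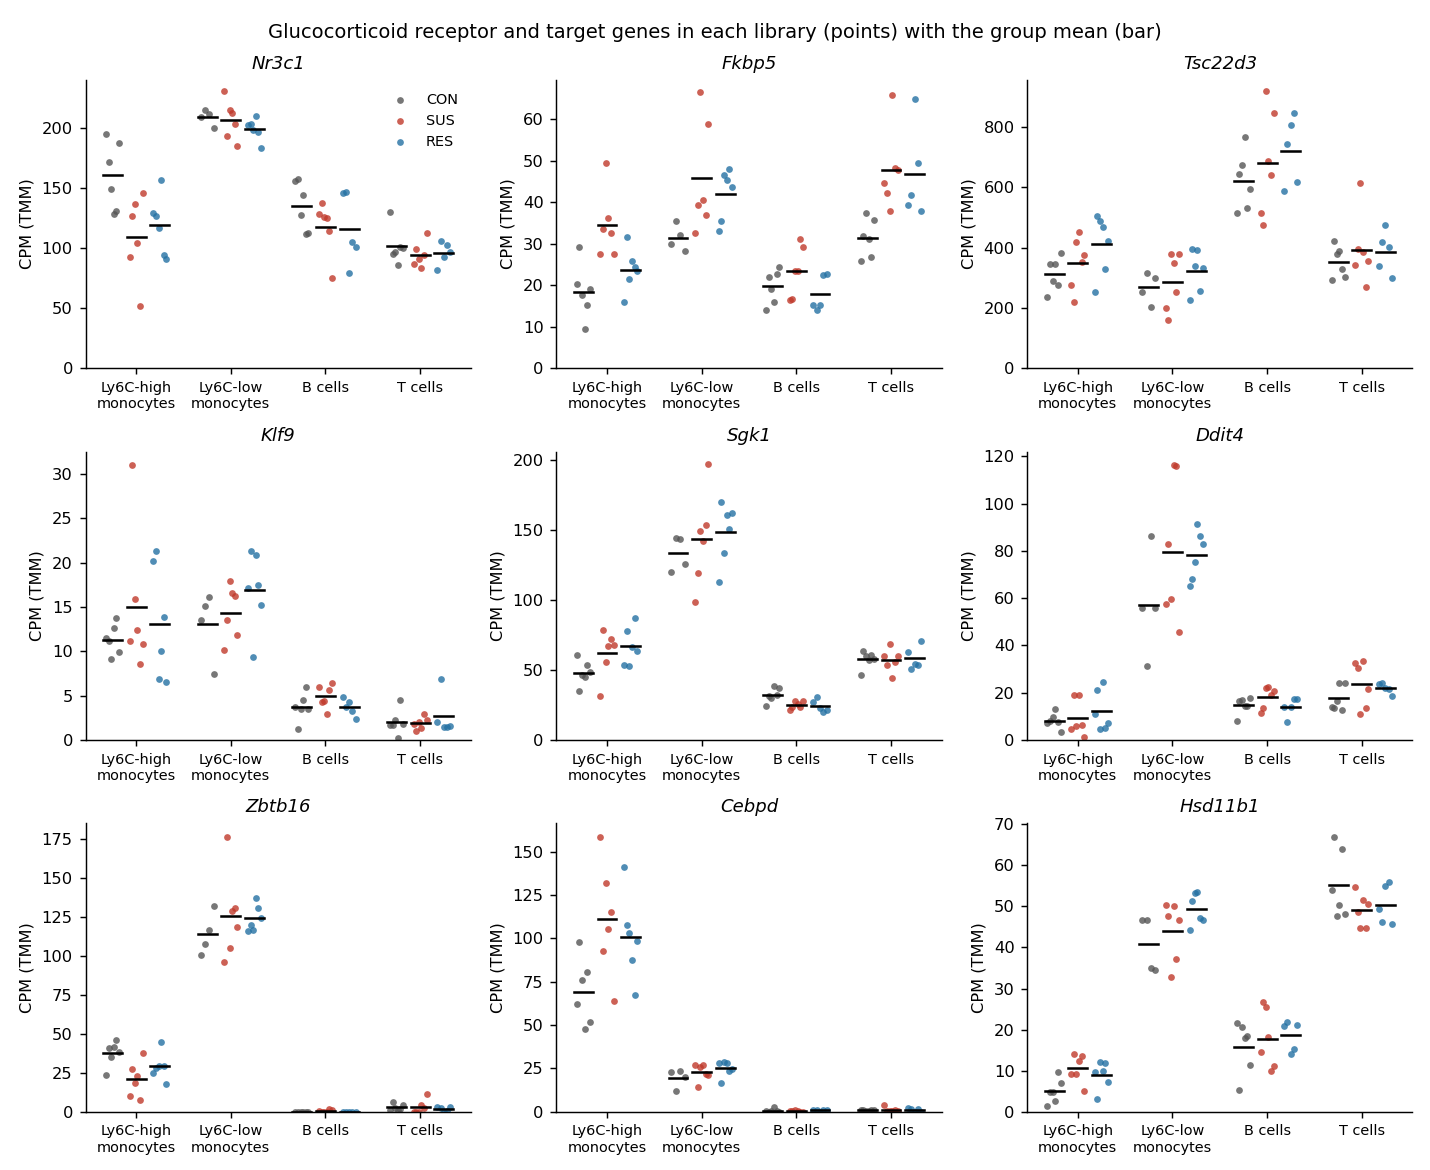
CPM of each gene in each library (points) by cell type and condition, with the group mean (bar), on linear axes that start at 0. In Ly6C-high monocytes 4 of 6 SUS libraries lie above all CON libraries for Fkbp5, and in T cells all SUS and RES libraries do.

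Fkbp5, the receptor's co-chaperone, had 9.33 to 29.1 CPM (median 18.4) in CON and 27.4 to 49.4 CPM (median 33.1) in SUS Ly6C-high monocytes. The groups overlapped only through CON library 4 at 29.1 CPM, and 4 of 6 SUS libraries were above all CON libraries. The increase was 1.82-fold (log2 0.87, SE 0.22, adjusted p = 0.0108). It was called in 12 of 12 fits that left out 1 library each, with log2 values from 0.72 to 1.04.

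Nr3c1 had 128.5 to 195 CPM (median 160.4) in CON and 51.5 to 146 CPM (median 115) in SUS libraries, where 4 of 6 lay below all CON libraries. Receptor mRNA in SUS mice was thus 0.665 times the CON level (log2 -0.59, SE 0.19, adjusted p = 0.0435). The lowest value, 51.5 CPM, belonged to SUS library 14, which also had the lowest Zbtb16, 7.23 CPM. Zbtb16 had 23.4 to 46.1 CPM (median 39.5) in CON and 7.23 to 37.5 CPM (median 21) in SUS mice, with 4 of 6 below all CON libraries, and fell by 0.89 on the log2 scale (SE 0.29, adjusted p = 0.0455).

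Cebpd, a transcription factor of the acute-phase response, had 47.7 to 97.7 CPM (median 69) in CON and 63.8 to 158 CPM (median 110.4) in SUS mice, and 4 of 6 SUS libraries exceeded every CON library. Its rise was 0.65 (log2, SE 0.21, adjusted p = 0.0377), which missed the threshold with DESeq2 size factors (0.59, adjusted p = 0.0583). The calls on Nr3c1, Cebpd and Zbtb16 lay near the threshold, and each was lost in fits that left out 1 library. The direction held in all 12 such fits. Log2 values ran from -0.71 to -0.47 for Nr3c1, 0.52 to 0.78 for Cebpd and -1.17 to -0.73 for Zbtb16. Nr3c1 lost its call without any of 7 libraries (CON 1, 4, 7 and 16, SUS 2, 11 and 14; adjusted p = 0.0588 to 0.122), Cebpd without any of 8 (CON 1, 7, 10 and 16, SUS 2, 8, 11 and 14; 0.0533 to 0.105) and Zbtb16 without any of 9 (CON 4, 7, 10, 13 and 16, SUS 2, 8, 11 and 14; 0.0651 to 0.101). Nr3c1 and Zbtb16 also missed the threshold with no low-count filter (adjusted p = 0.053 and 0.0572) and with only SUS and CON libraries fitted (0.0614 and 0.0645), settings in which Fkbp5 and Cebpd passed.

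Hsd11b1 had the highest log2 fold change of the 9, 1.05, but with SE 0.39 and adjusted p = 0.0795 it was not called. Its range was 1.47 to 9.76 CPM in CON and 5 to 14 CPM in SUS libraries, and 3 of 6 SUS libraries lay above all CON libraries. DESeq2 called it (adjusted p = 0.0497), and by edgeR it passed without CON library 13 (adjusted p = 0.0342) or without SUS library 17 (0.0434). The remaining targets did not pass, with log2 fold changes of 0.34 (SE 0.19) for Sgk1, 0.37 (SE 0.32) for Klf9, 0.15 (SE 0.51) for Ddit4 and 0.12 (SE 0.17) for Tsc22d3. The Klf9 value rested on SUS library 5, at 31 CPM, without which it was 0.006, and Ddit4 turned to -0.20 without that library and to -0.17 without SUS library 11. For 0 of the 9 genes were SUS and CON libraries of Ly6C-high monocytes fully separated, against 6.96% of all genes.

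**Figure D3:**
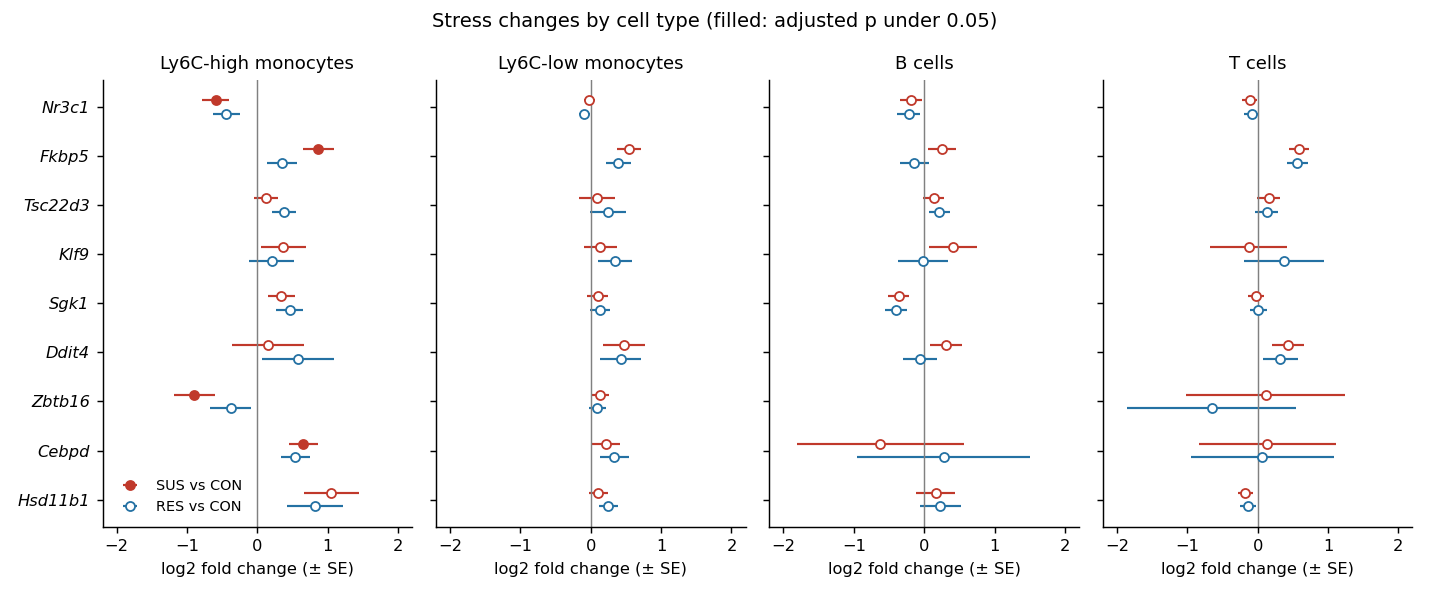
Log2 fold changes (± SE) of SUS and RES against the same CON libraries, by cell type. Filled points passed at adjusted p under 0.05, which were Nr3c1, Fkbp5, Zbtb16 and Cebpd in SUS Ly6C-high monocytes. Zbtb16 was not tested in B cells.

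In RES mice, compared with the same CON libraries, 0 of the 9 genes passed by edgeR and 0 by DESeq2, while 4.97% of all genes passed by edgeR. At an unadjusted p under 0.05 the edgeR count was 5 of 9 (Nr3c1, Tsc22d3, Sgk1, Cebpd and Hsd11b1), against 3599 of all 16955 genes. Fkbp5 had 15.9 to 31.6 CPM (median 23.8) in RES Ly6C-high monocytes, and 1 of 6 libraries was above all CON libraries (log2 0.35, SE 0.22, adjusted p = 0.364). Nr3c1 had 90.7 to 156 CPM (median 121.7), and 4 of 6 libraries were below all CON libraries (-0.44, SE 0.19, adjusted p = 0.177). With only RES and CON libraries fitted, Nr3c1 passed (-0.47, adjusted p = 0.0434), and in the fit of the same kind for SUS mice it did not. Cebpd stood at 0.54 (SE 0.21, adjusted p = 0.123), Sgk1 at 0.46 (SE 0.19, adjusted p = 0.157), Tsc22d3 at 0.38 (SE 0.17, adjusted p = 0.196), Hsd11b1 at 0.82 (SE 0.39, adjusted p = 0.228) and Zbtb16 at -0.38 (SE 0.29, adjusted p = 0.495).

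SUS and RES mice were also compared directly in Ly6C-high monocytes. There 0 of the 9 genes passed by edgeR or DESeq2 (0.0059% of all genes by edgeR). By edgeR 620 of 16955 genes had an unadjusted p under 0.05, and among the 9 there was 1, Fkbp5. Its SUS libraries exceeded all RES libraries in 4 of 6 cases (log2 0.51, SE 0.22, adjusted p = 0.999). A difference between SUS and RES mice in these genes was therefore not shown.

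RNA of red cells moved with stress in the same libraries. The summed CPM of 6 red cell genes (Hba-a1, Hba-a2, Hbb-bs, Hbb-bt, Alas2 and Slc4a1) in Ly6C-high monocytes was 343 to 1215 (median 608) in CON, 1097 to 8988 (median 1682) in SUS and 1077 to 4348 (median 1851) in RES libraries. All 6 genes were called higher in SUS mice, with a median log2 fold change of 2.07, and 1 of 6 in RES mice. With their mean log2 level as a covariate, 0 of the 9 genes passed in SUS against CON mice and 0 had an unadjusted p under 0.05, and 1 of 16955 genes passed by edgeR. Fkbp5 then had a log2 fold change of 0.54 (SE 0.28, adjusted p = 0.769), Cebpd 0.51 (SE 0.27), Zbtb16 -0.45 (SE 0.36) and Nr3c1 -0.20 (SE 0.23). The red cell ranges of CON and SUS libraries met only between 1097 and 1215 CPM, so stress and red cell RNA cannot be told apart here. The ranges of SUS and RES libraries overlapped widely. With the covariate, 0 of the 9 genes passed in SUS against RES mice. There 652 of 16955 genes had an unadjusted p under 0.05, and among the 9 there was again 1, Fkbp5. Within groups (18 libraries, group means subtracted), the correlation with red cell RNA was -0.55 for Nr3c1, 0.50 for Tsc22d3, 0.36 for Fkbp5, -0.33 for Zbtb16 and 0.23 for Cebpd, over points that share libraries and depth.

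**Figure D4:**
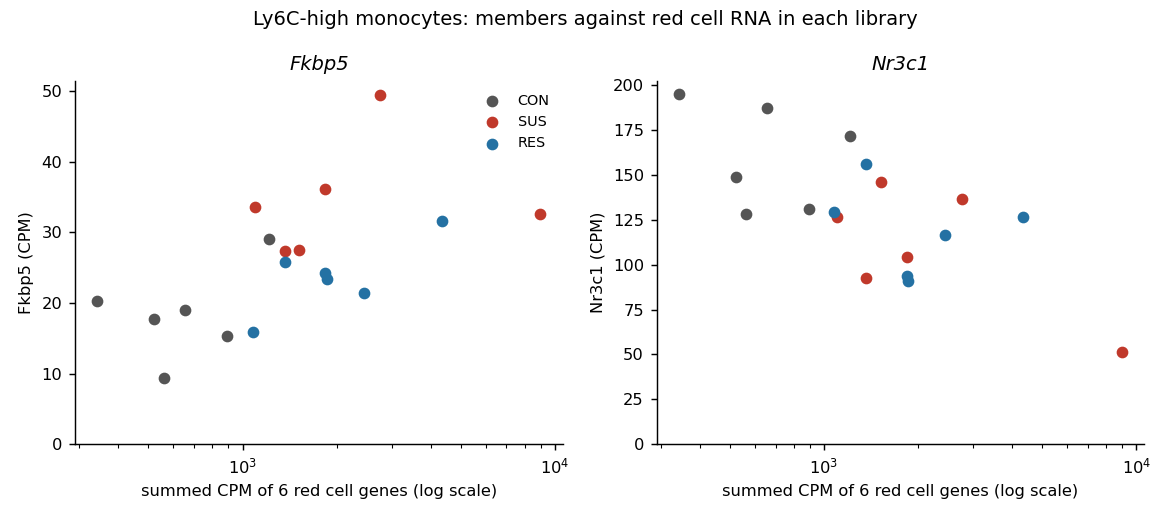
Fkbp5 and Nr3c1 (CPM, linear axes) against the summed CPM of 6 red cell genes (log axis) in the 18 Ly6C-high libraries. CON libraries lie at 343 to 1215 and SUS libraries at 1097 to 8988 on the horizontal axis, and the SUS library with the most red cell RNA has the lowest Nr3c1, 51.5 CPM.

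Other cell types' markers were measured in the same way. Of 7 platelet genes 2 rose in SUS Ly6C-high monocytes (summed CPM 6.77 to 12.4 in CON and 8.92 to 62.9 in SUS), and of 6 neutrophil genes tested 0 passed by edgeR or DESeq2, with 1 at an unadjusted p under 0.05 (summed CPM of 7 genes 10.5 to 370.4 in CON and 21.3 to 1239 in SUS). Within the sorted type, 3 of 5 Ly6C-high markers rose, and 0 of 5 Ly6C-low markers passed by edgeR (2 at an unadjusted p under 0.05, and 2 by DESeq2). Of all 16955 genes, 4498 had an unadjusted p under 0.05 in this comparison. B and T cell markers summed to at most 18.9 and 3.74 CPM. The part of these cells in the changes of the 9 genes was not tested.

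In the other cell types, 0 of the 9 genes (8 tested in B cells) passed by edgeR in either stress group. Fkbp5 was nevertheless the gene that stood apart in T cells. It had 25.7 to 37.4 CPM (median 31.5) in CON and 37.9 to 65.7 CPM (median 46.2) in SUS libraries, and 37.9, 39.3, 41.8, 49.5 and 64.8 CPM in the 5 RES libraries. Every SUS and every RES library was above every CON library, narrowly at the edge, where 37.4 CPM met 37.9 CPM.

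Such full separation was seen for 1 of the 9 genes in each comparison, against 0.345% of all genes in SUS and 0.615% in RES T cells. The log2 fold changes of Fkbp5 were 0.59 (SE 0.14, adjusted p = 0.167) in SUS and 0.56 (SE 0.15, adjusted p = 0.63) in RES mice by edgeR, where 0.0424% and 0% of all genes passed. DESeq2 called it in SUS mice (0.60, adjusted p = 0.0328). The SUS and RES values share their CON libraries. With the red cell covariate the SUS value was 0.53 (SE 0.17, adjusted p = 0.91 by edgeR), and Fkbp5 kept an unadjusted p under 0.05 in both stress groups. Summed red cell CPM in T cells was 888 to 2834 in CON, 1645 to 4496 in SUS and 1683 to 4646 in RES mice.

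In Ly6C-low monocytes Fkbp5 had 28.3, 29.8, 32 and 35.5 CPM in CON libraries, 32.7 to 66.6 CPM (median 39.9) in SUS and 32.9 to 47.9 CPM (median 44.5) in RES libraries. Of the 6 SUS libraries 5 and of the 6 RES libraries 4 were above all CON libraries. The log2 fold changes were 0.54 (SE 0.17, adjusted p = 0.232) and 0.39 (SE 0.17, adjusted p = 0.448), with 0.241% and 0.0256% of all genes called. Summed red cell CPM was 295 to 1259 in CON, 859 to 2691 in SUS and 877 to 3919 in RES Ly6C-low libraries. At an unadjusted p under 0.05, Fkbp5 was the 1 gene of the 9 in each of these comparisons, as it was in T cells. In Ly6C-low monocytes 1857 (SUS) and 1887 (RES) of 19521 genes were under that limit, a share near 1 of 9. In T cells 906 (SUS) and 775 (RES) of 18860 genes were. With the red cell covariate Fkbp5 stayed under that limit in SUS but not in RES Ly6C-low monocytes. Nr3c1 in Ly6C-low monocytes had log2 fold changes of -0.02 (SE 0.08) and -0.10 (SE 0.08).

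In B cells, where 0.00568% of all genes passed in SUS and 0% in RES mice, Fkbp5 had log2 fold changes of 0.25 (SE 0.19) and -0.14 (SE 0.20). By edgeR, 602 (SUS) and 560 (RES) of 17620 genes had an unadjusted p under 0.05. Among the 9, the gene under that limit was instead Sgk1, a kinase that regulates ion transport. Its CPM was 24.3 to 38.5 (median 31.8) in CON, 21.1 to 28.1 (median 24.7) in SUS, and 20.2, 21.7, 22.7, 26.8 and 30.4 in the 5 RES libraries. In each stress group 3 libraries were below all CON libraries, and the log2 fold changes were -0.37 (SE 0.15, adjusted p = 0.999) and -0.40 (SE 0.15, adjusted p = 1). SUS and RES mice did not differ by the test in Ly6C-low monocytes, B cells or T cells, where edgeR called 0 of the 9 genes and 0% of all genes in each comparison and DESeq2 also called 0 of the 9. None of the 9 had an unadjusted p under 0.05 there by edgeR, and 1, Zbtb16 in B cells, had one by DESeq2.

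Whether the response of Ly6C-high monocytes differed from that of the other cells was tested as a difference of log2 fold changes. For Fkbp5 in SUS mice it was 0.36 (SE 0.28, adjusted p = 0.651) against Ly6C-low monocytes, 0.65 (SE 0.27, adjusted p = 0.131) against B cells and 0.30 (SE 0.27, adjusted p = 0.619) against T cells. For Nr3c1 it was -0.54 (SE 0.22, adjusted p = 0.24), -0.35 (SE 0.21, adjusted p = 0.344) and -0.45 (SE 0.21, adjusted p = 0.229). Neither gene's response was thus shown to be particular to Ly6C-high monocytes.

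For Sgk1 the difference between Ly6C-high monocytes and B cells passed, with 0.74 (SE 0.21, adjusted p = 0.0241) in SUS and 0.88 (SE 0.22, adjusted p = 0.0272) in RES mice, 2 contrasts that share CON libraries. Its values were on opposite sides of 0, higher in stressed Ly6C-high monocytes (CON 34.6 to 61 CPM, SUS 31.6 to 78.7, RES 52.7 to 87.1) and lower in stressed B cells, although neither change passed on its own. With B cells fitted against Ly6C-high monocytes alone, adjusted p was 0.0792 and 0.103, and with DESeq2 size factors it was 0.0655 and 0.0498. Zbtb16 also passed against B cells in SUS mice, but B cells held 0 to 52 counts per library, so its fitted difference of -6.19 depends on near-zero counts and is no measure of size. Against B cells 2 of the 9 genes thus passed in SUS (6.18% of all genes) and 1 in RES mice (1.65%). Against Ly6C-low monocytes 0 passed in either (0.363% and 0.099%), and against T cells 0 passed (3.22% and 0.713%), with Hsd11b1 in SUS mice at 1.23 (SE 0.38, adjusted p = 0.0556). An unadjusted p under 0.05 was seen for Nr3c1 and Hsd11b1 in SUS mice against both of these cell types. In RES mice it was seen for Sgk1 and Hsd11b1 against T cells, and for 0 genes against Ly6C-low monocytes. Many of all 24248 genes were under that limit too. Against Ly6C-low monocytes these were 3446 in SUS and 2845 in RES mice, and against T cells 4541 and 4289. DESeq2 was not run on these differences.

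The rest of the pathway was described from 3 lists in SUS Ly6C-high monocytes. Of their genes 12 passed by edgeR and 23 by DESeq2, and directions below are edgeR's. The edgeR counts are to be read against the 12.6% of all genes that edgeR called in this comparison (4.97% in RES mice). DESeq2 called 3139 of 28758 genes (1634 in RES mice). With the red cell covariate 1 of 16955 genes passed, so at most 1 of the list calls could remain. Of 24 genes of the receptor machinery 23 were tested, 2 rose and 4 fell (6 of 23), with a median log2 fold change of -0.19. Bag1, a co-chaperone of Hsp70, rose from 69.3 ± 11.4 to 112 ± 26.2 CPM (log2 0.66, SE 0.15, adjusted p = 0.00617, n = 6 per group), and Cdc37, which loads clients onto Hsp90, rose by 0.60 (SE 0.17, adjusted p = 0.0181). Hsp90aa1, the inducible Hsp90, fell by 0.69 (SE 0.19, adjusted p = 0.0174), the drug transporter Abcb1b by 0.75, the coactivator Crebbp by 0.49 and the corepressor Ncor1 by 0.43. Bag1 was also called in RES mice (0.51, SE 0.15, adjusted p = 0.0484).

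Of 25 other induced targets 21 were tested, 3 rose and 1 fell, with a median of 0.14. The metallothionein Mt1 rose from 2.29 ± 1.76 to 10.9 ± 6.71 CPM (2.21, SE 0.68, adjusted p = 0.0348), annexin A1 (Anxa1), an anti-inflammatory protein, by 0.61, and the pro-apoptotic Bcl2l11 by 0.45. The scavenger receptor Cd163 fell by 1.46 (SE 0.40, adjusted p = 0.0174). Per1 and Dusp1, rapid targets in many cells, had log2 fold changes of -0.00 (SE 0.25) and 0.02 (SE 0.21). Of 18 targets that the receptor represses 13 were tested, 0 rose and 2 fell, a share near that of all genes, with a median of -0.34. The chemokine Cxcl10 fell by 2.08 (SE 0.56, adjusted p = 0.0165), from 9.43 ± 0.9 to 2.29 ± 1.85 CPM, and the AP-1 subunit Jun by 0.68 (SE 0.18, adjusted p = 0.0143).

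In RES Ly6C-high monocytes Bag1 was the 1 gene called by edgeR in the machinery list. Of 21 other induced targets 0 passed by edgeR or DESeq2. At an unadjusted p under 0.05 there were 5, a share near that of all genes (3599 of 16955). Of 13 repressed targets 1, the adhesion molecule Icam1, rose (0.67, SE 0.18, adjusted p = 0.0343). In the other cell types 0 genes of the 3 lists passed by edgeR in SUS or RES mice. Over those 3 types, 14 tests in SUS and 17 in RES mice had an unadjusted p under 0.05, and DESeq2 called 3 and 2. Of all genes, those under that limit in SUS mice were 1857 of 19521 in Ly6C-low monocytes, 602 of 17620 in B cells and 906 of 18860 in T cells. In RES mice they were 1887, 560 and 775. The mineralocorticoid receptor Nr3c2, which binds the same hormone, was at a group mean of at most 3.19 CPM, in SUS B cells, and was too low to test in Ly6C-high monocytes.

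**Figure D5:**
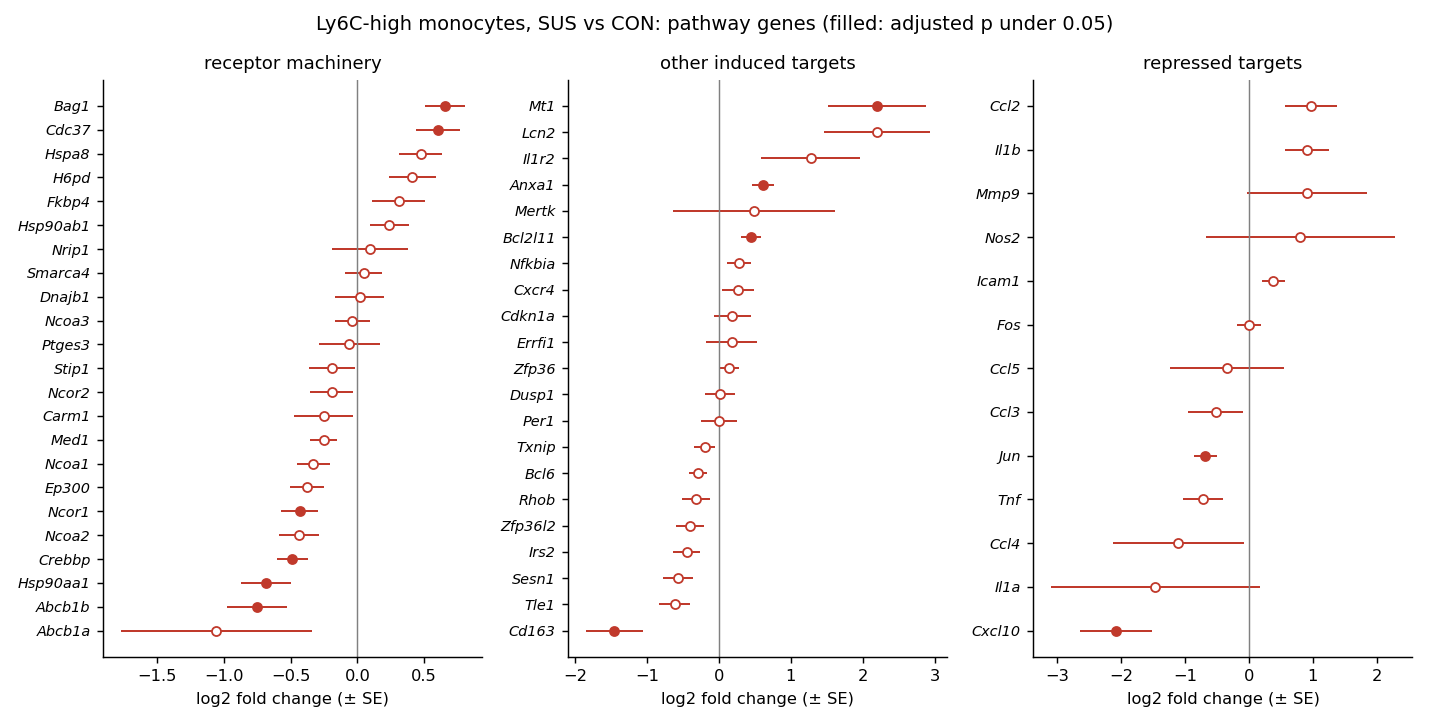
Log2 fold changes (± SE) of SUS against CON Ly6C-high monocytes for the 3 pathway lists, each on its own horizontal axis. Filled points passed at adjusted p under 0.05, 6 in the machinery list, 4 among the other induced targets and 2 among the repressed targets.

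Across the 68 libraries, patterns like those of 3 of the genes were described by Pearson correlation of log2(CPM + 0.5) over 10573 protein-coding genes. The points share libraries, depth and cell type, so these are descriptions. Genes most like Nr3c1 included Chd9 (r = 0.93), Purb, Aftph and Rock2, and, after subtracting group means, Zfp638 (0.85), Clk1, Atrx, Zmym2 and Ddx3y. Fkbp5 was most like Gramd4 (0.75), Il18rap, Plekha6, Tgfbr3 and Ikzf1, and after subtraction like Arl8a (0.52), Sema4b, Phrf1, Lnx2 and Glul. Tsc22d3 was most like Dgkd (0.84), Sema4b, Plekha2, Vars and Trim35. After subtraction it was most like Cxcr4 (0.78), Btg2 (0.63), Dusp1 (0.60), Sik1 (0.60) and Cfap43 (0.55). Among the 9 genes within the 18 Ly6C-high libraries, after subtracting group means, Nr3c1 and Zbtb16 varied together (r = 0.65), Sgk1 and Cebpd in opposite directions (-0.61), and Nr3c1 and Fkbp5 weakly (0.29).

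The libraries left out carried the marker RNA of the other lymphocyte. Library 52, labelled RES B cells, had 9.27 CPM over the 5 B cell markers and 1740 CPM over the 5 T cell markers, and its Fkbp5 (63.1 CPM), Sgk1 (58.1 CPM), Hsd11b1 (55.7 CPM) and Tsc22d3 (354 CPM) lay in the range of the T cell libraries. Library 70, labelled RES T cells, had 4663 CPM of B cell and 17.4 CPM of T cell markers, and its Tsc22d3 (765 CPM) and Hsd11b1 (20.6 CPM) lay in the range of B cells. Its Sgk1 was 16.4 CPM, below every B cell library used. Kept under their labels, they moved the RES B cell mean of Fkbp5 from 17.9 to 25.3 CPM.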

How the data were processed

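RNA of FACS-sorted blood leukocytes was sequenced from a low-input stranded total RNA kit. The authors mapped reads to mm10 with HISAT2 and deposited raw counts per gene from htseq-count with Ensembl annotation; strand setting and handling of multiply mapped reads are not given in the sources used here. Of 52636 gene IDs, 52489 matched GENCODE M21. No 2 of 171 same-group pairs were identical, and mitochondrial genes held 3.66 to 18.4% and Gm23935 with Gm26917 0.395 to 41% of counts, so depth for other genes varied (total 19769835 to 67038231, median 37105583.5).

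From the counts, CPM and RPKM (union exon length) were computed with TMM scaling over 68 libraries. Each cell type was fitted by condition (filterByExpr, edgeR 4.0.16 quasi-likelihood F test, R 4.3.3, limma 3.58.1), with Benjamini-Hochberg adjustment over all genes tested and calls at adjusted p under 0.05. Cell types and differences of change were tested in 1 fit of 12 groups. SE is the log2 fold change over the root of F. Alternatives were DESeq2 1.42.0, its size factors, no low-count filter, a log2 fold change above 1, a red cell covariate, other library sets and each library left out (90 fits). The tests were checked on simulated counts. The 9 genes and all lists were chosen with earlier results of these data known. Beside the 9, list genes were named at adjusted p under 0.05 and a mean of at least 1 CPM in 1 group, at most 5 per direction, and Nr3c2, Per1 and Dusp1 always; Hba-a1, Hba-a2, Hbb-bs, Hbb-bt, Alas2 and Slc4a1 are the whole red cell list. The 5 genes most like Nr3c1, Fkbp5 and Tsc22d3 needed a mean of at least 5 CPM in 1 group, and 1 of them is not reported here. Replicates are libraries, and labels do not say whether each is 1 mouse.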

Additional observations from a re-analysis of the deposited data

Results flagged for a closer look

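A library far from the rest was sought with Dixon's ratio. Its nominal rate of about 1 in 20 assumes independent normal values, while these CPM share libraries and include groups near 0. Over 9 genes and 12 groups of 4 to 6 libraries, 12 of 108 combinations of gene and group held such a library. In CPM, these were Nr3c1 in SUS B cells (lowest, 75.1) and CON T cells (highest, 130.2), Fkbp5 in SUS T cells (highest, 65.7), Tsc22d3 in SUS T cells (highest, 614), Klf9 in SUS Ly6C-high monocytes (highest, 31) and RES T cells (highest, 6.9), Sgk1 in CON T cells (lowest, 46.6) and Ddit4 in CON B cells (lowest, 7.93). Low-level genes gave the rest, Zbtb16 in CON B cells (highest, 0.0508, from 2 counts) and SUS T cells (highest, 11.5), and Cebpd in CON B cells (highest, 2.78) and SUS T cells (highest, 4.14). The high Nr3c1 and the low Sgk1 of CON T cells were in the same library, 53.

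The change with stress differed between Ly6C-high monocytes and B cells by a test of the difference for Sgk1 in SUS mice (0.74 on the log2 scale, adjusted p = 0.0241 by edgeR) and RES mice (0.88, adjusted p = 0.0272), and both calls on Sgk1 were lost with only these cell types fitted or with libraries 52 and 70 kept, the SUS call also with DESeq2 size factors (0.0655). It differed as well for Zbtb16 in SUS mice (-6.19, adjusted p = 0.0201), where B cells had near-zero counts. Outside the libraries used, the library labelled RES B cells that was left out had 1740 CPM of T cell markers, and the library labelled RES T cells had 4663 CPM of B cell markers.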

How the results depend on the processing

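Most stress comparisons had a count of 0 called genes in nearly every setting, which says nothing of stability. For SUS against CON Ly6C-high monocytes, the 4 calls became 0 with log2 fold change above 1 required, 0 with the red cell covariate, 2 (Fkbp5 and Cebpd) with no low-count filter and 2 (the same genes) with only the 2 groups fitted; leaving out single libraries gave 1 to 5, and 1 or 2 in 9 of 12 fits, with Fkbp5 alone left without SUS 2, 11 or 14 or CON 7 or 16. Fitting only the 2 groups gave 1 call (Nr3c1) in RES Ly6C-high monocytes, and DESeq2 gave 1 (Fkbp5) in SUS T cells. The monocyte types differed in 8 genes when averaged over CON, SUS and RES mice, and B and T cells in 2 with log2 fold change above 1. For Ly6C-high monocytes against B cells, the SUS count became 1 (Sgk1 lost, Zbtb16 left) with DESeq2 size factors, with libraries 52 and 70 kept or with only these types fitted, and the RES count became 0 (Sgk1 lost) with libraries 52 and 70 kept or with only these types fitted. Among the stress fold changes printed above, signs turned with the red cell covariate for Tsc22d3 in SUS (-0.22) and Zbtb16 in RES Ly6C-high monocytes (0.091). Ddit4 in SUS Ly6C-high monocytes turned without SUS library 5 (-0.20) or 11 (-0.17), in a range of -0.20 to 0.37 over libraries left out. Fkbp5 in RES B cells turned with libraries 52 and 70 kept (0.38). Fold changes not printed above also turned over libraries left out, such as Cebpd in SUS B cells (-1.04 to 0.66) and Klf9 in RES T cells (-0.36 to 0.77). Except where a setting tests fewer libraries or asks for more, the cause was not tested. TMM scaling within 1 cell type and over all 68 libraries differed by at most 0.0852 on the log2 scale, after centring on the median of each type. No paired analysis was possible because the groups share no replicate numbers. With 4 to 6 libraries per group, values that missed the threshold do not show that expression was equal.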
